A study of Mus musculus with 6 samples.

Results

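The genes described here are those through which a cell takes up, stores, exports and senses iron. The 10 symbols were chosen by known role rather than by level, and all were found among the 21878 genes listed in the expression table and passed the filter on low values. They were Tfrc, Slc11a2 and Steap3 for uptake, Fth1, Ftl1 and Ncoa4 for storage, Slc40a1 for export, and Ireb2, Aco1 and Fbxl5 for sensing. The study examined HT22 cells, an immortalized mouse hippocampal line, exposed to aluminum (Al), and sequenced m6A-immunoprecipitated RNA beside the fragmented input RNA. The values used here came from the input RNA of 6 libraries, 3 from control cells and 3 from cells given 120 µM aluminum maltolate for 24 h, so both groups were the same line. The label M was read as the Al group because the design names only a control and an Al-treated group. The methods list a control in medium alone and a separate maltol control, and the sequenced group is named only control. Libraries of cells given maltol alone were not analysed here, so an effect of maltol and an effect of Al cannot be told apart. The labels call the replicates biological but do not give separate passages or days, so the P values measure the spread between these libraries.

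Iron enters most cells bound to transferrin, which the transferrin receptor carries into endosomes, where a STEAP reductase reduces it and the transporter DMT1 moves it to the cytosol. Ferritin, a shell of heavy and light chains, stores the surplus, ferroportin exports it, and the iron regulatory proteins encoded by Aco1 and Ireb2 bind a short RNA hairpin, the iron-responsive element (IRE), when iron is scarce. Bound at a 5′ UTR the proteins block translation, and bound at a 3′ UTR they protect the transcript from decay. Aluminum can occupy transferrin and maltol is a known iron chelator, which is the reason for looking at these genes in this experiment.

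The hairpins that set this wiring are shown because they divide the 10 genes by the side of the message on which iron acts. A search of the annotated UTRs, on the strand of the gene, looked for an unpaired C, a 5-base arm, CAGTG, 1 further base, and a second arm pairing with the first at 4 or 5 of its 5 positions. Matches were found in 5 of the 10 genes (reference sequence GRCm38, written 5′ to 3′, CAGTG in capitals, 5 flanking bases on each side).
Tfrc 3′ UTR, chr16:32631220-32631246, plus strand: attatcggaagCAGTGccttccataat
Tfrc 3′ UTR, chr16:32631599-32631625, plus strand: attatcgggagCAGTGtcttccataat
Tfrc 3′ UTR, chr16:32631664-32631690, plus strand: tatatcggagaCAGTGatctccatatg
Tfrc 3′ UTR, chr16:32631711-32631737, plus strand: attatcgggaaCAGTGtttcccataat
Slc11a2 3′ UTR, chr15:100395154-100395180, minus strand: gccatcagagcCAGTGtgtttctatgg
Fth1 5′ UTR, chr19:9982733-9982759, plus strand: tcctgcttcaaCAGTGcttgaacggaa
Ftl1 5′ UTR, chr7:45459780-45459806, minus strand: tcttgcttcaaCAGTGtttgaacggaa
Slc40a1 5′ UTR, chr1:45925466-45925492, minus strand: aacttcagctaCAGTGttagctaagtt

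All of these paired at 5 of 5 positions except the Slc11a2 match, at 4 of 5. A match in the 3′ UTR at 5 of 5 positions was held by 0.609% of 21022 coding genes and one at 4 or more by 4.11%, and in the 5′ UTR by 0.144% and 0.947% of 20899. The Slc11a2 match lay in 1 of 6 annotated coding transcripts, and the table gives 1 value per gene, so the isoform with the hairpin was not measured apart from the others. The Tfrc matches lay in 1 of 3 coding transcripts, the Fth1 match in 4 of 5, the Ftl1 match in 1 of 2 and the Slc40a1 match in 1 of 4, and the same limit holds for them. No such letters were found in the UTRs of Ireb2, Aco1, Fbxl5, Ncoa4 or Steap3. An expression level says nothing of translation, which is where a 5′ hairpin acts.

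The control libraries held 37768842 to 44220124 reads on genes and the Al libraries 20973691 to 26487603, as recovered from the steps of the FPKM values. These steps fix the reads of a gene only up to a common divisor, so the totals are approximate. The 50 most abundant genes of each library took 18 to 19.4% of its summed FPKM in control and 30 to 32.5% in Al. A single list of the 50 genes with the highest mean FPKM over all 6 libraries held Fth1, Ftl1 and 48 others. Of these 48, 46 were called higher in Al, with a median log2 fold change of 1.65. The Al libraries took part in that ranking, which favours genes high in Al. Levels below are therefore FPKM divided by a size factor per library, called scaled FPKM, and a gene was called where limma gave a Benjamini-Hochberg adjusted P under 0.05 over 12889 genes with an absolute log2 fold change above 0.58. The median gene changed by 0.03 on the log2 scale with these size factors, by −0.43 for the FPKM as deposited and −0.74 for TPM, and each gene's change shifts with it. The label of a neuronal line was not borne out by most of the markers, as 8 of 10 neuron markers were too low to test and Snap25 and Nefm were listed at 0 in all libraries. Tubb3 was present, at 5.11 to 5.54 FPKM in control and 2.44 to 3.96 in Al. It made up most of the summed FPKM of the 10 neuron markers, 5.4 to 5.79 in control and 2.91 to 4.28 in Al. The summed FPKM of 4 fibroblast markers was 2010 to 3190 in control and 2470 to 3450 in Al, of which Col1a1 was called higher and Dcn and Pdgfra lower. The Col1a1 call was lost with the FPKM as deposited (0.43), TPM (0.13), no filter or the replicate block, turned with quantile normalization (−0.46), and was lost without control replicate 2 (0.925), control replicate 3 (0.72) or Al replicate 1 (0.71). Among markers of astrocytes, oligodendrocytes, microglia and endothelial cells, Slc1a3 was called lower (−2.96) and Cx3cr1 (2.14), Sox10 (2.29), Cd68 (0.996) and Pecam1 (1.26) higher, while Aqp4 and P2ry12 were listed at 0 in all libraries. Cx3cr1, Sox10 and Pecam1 were near the floor, at a mean FPKM of 0.067, 0.023 and 0.058 in control and 0.54, 0.43 and 0.21 in Al. The microglia markers Tmem119 (0.25, mean FPKM 43.5 in control), Aif1 (−0.71) and Csf1r (−0.06) were tested and not called, nor were Aldh1l1 (0.09) and Mog (1.08). The Cd68 call was lost with the FPKM as deposited (0.53) and TPM (0.26), that of Sox10 with a pseudocount of 1 (0.56), and that of Pecam1 with either of those scalings, quantile normalization or a pseudocount of 1, and without control replicate 1 (1.22), control replicate 2 (0.98) or Al replicate 1 (1.13). The part of these markers in the iron gene results was not tested, and in bulk RNA fewer cells of a type and less RNA per cell cannot be told apart.

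Of the 10 iron genes, 4 were called higher in Al (Ftl1, Fth1, Tfrc and Steap3) and 2 lower (Slc40a1 and Slc11a2). Over all tested genes, 25.5% (3291) were called higher and 23.7% (3053) lower. The split differed between scalings, with 2 iron genes higher and 4 lower among 1736 and 5321 genes for the FPKM as deposited, 2 and 5 among 1140 and 6738 for TPM, and 0 and 1 among 2777 and 3007 after quantile normalization. The Al libraries lay wholly above the control libraries for 5 iron genes and wholly below for 4, against 35.1% and 33.1% of all tested genes. With 10 genes and so many calls elsewhere, these counts set nothing apart about the group as a whole, and the description below is of single genes. Their median log2 fold change was 0.18, against 0.03 for all tested genes. Without control replicate 2, only 1 of the 4 higher calls was left, that of Tfrc, while both lower calls stood when any 1 library was left out.

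The levels spanned a wide range in the controls. Ferritin light and heavy chain came first, at 2171 ± 381 and 1881 ± 165 scaled FPKM (SD, n = 3), followed by Tfrc and Steap3 at 49.0 ± 15.5 and 44.5 ± 1.11. Aco1 followed at 18.8 ± 0.58, Fbxl5 at 16.6 ± 0.884 and Ireb2 at 11.9 ± 0.532. Ncoa4, Slc11a2 and Slc40a1 stood last, at 8.56 ± 0.392, 8.51 ± 0.678 and 8.27 ± 0.653, and their libraries overlapped, as did those of Ftl1 with Fth1 and of Tfrc with Steap3. In Al, Tfrc (76.2 to 100.3) stood clear of Steap3 (63.6 to 73.1), Fbxl5, Ncoa4 and Ireb2 overlapped, and Slc40a1 stood wholly below Slc11a2.

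**Figure D1:**
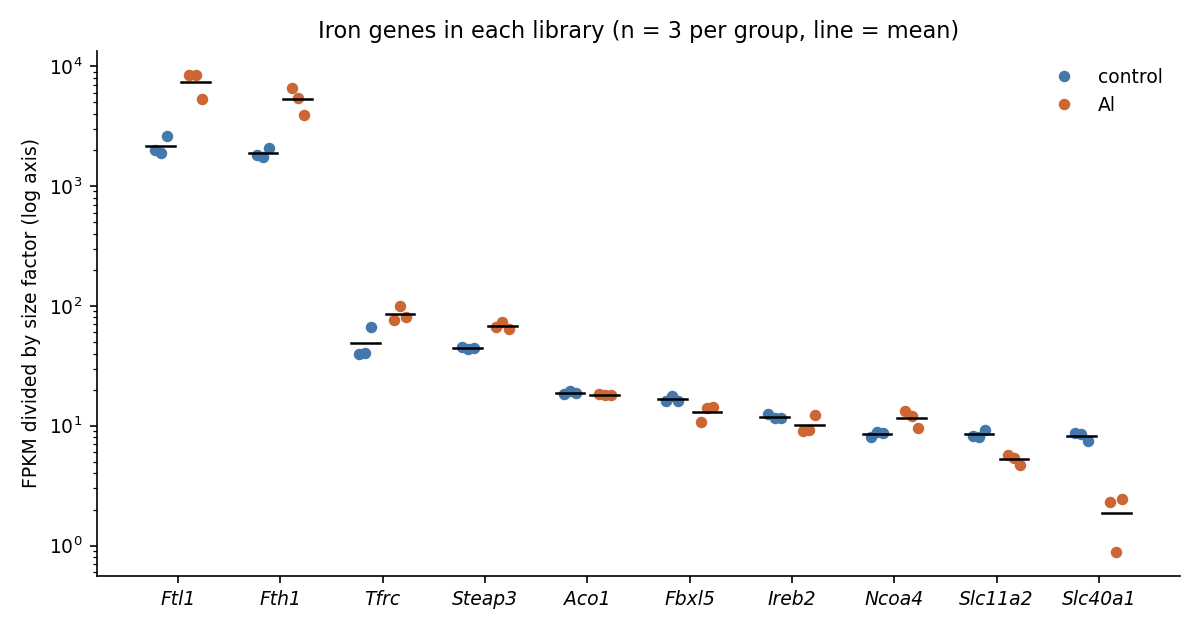
Scaled FPKM (vertical log axis) of the 10 iron genes in each of the 3 control (blue) and 3 Al (orange) libraries, with the mean of each group as a line. Ftl1 and Fth1 lie far above the other genes in both groups, and Slc40a1 falls from 8.27 to 1.88 in the mean.

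Uptake genes did not move in 1 direction. Tfrc, the receptor for iron-loaded transferrin, rose, and Steap3, the endosomal reductase, rose to just past the fold threshold. Slc11a2, which encodes DMT1 and acts in the same endosome, fell.

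Tfrc stood at 39.4, 40.8 and 66.8 scaled FPKM in the controls and at 76.2, 100.3 and 80.4 in Al, from 8155 to 18009 reads per library. The groups did not overlap, but control replicate 3 was well above the other controls. The log2 fold change was 0.84 ± 0.21 (SE, limma, adjusted P = 0.007), and it was 1.07 without control replicate 3. In the FPKM as deposited, with 46.5, 49.1 and 78.1 in control against 60.9, 81.4 and 74.6 in Al, the groups overlapped and the call was lost (log2 fold change 0.35, limma adjusted P = 0.138). Tfrc was likewise not called with TPM (0.05) or quantile normalization (0.38).

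Steap3 stood at 45.7, 43.5 and 44.3 scaled FPKM in control and at 67.0, 73.1 and 63.6 in Al. The libraries of a group lay close together and the groups were far apart relative to that spread, with a log2 fold change of 0.61 ± 0.10 (limma adjusted P = 0.000673). The size was near the threshold of 0.58, and the call was lost without control replicate 2 (0.58), without Al replicate 2 (0.56), with voom on the recovered reads (0.54) and with quantile normalization (0.18). As deposited, the FPKM of Steap3 overlapped between the groups (51.9 to 53.9 in control, 53.6 to 59.3 in Al) and it was not called (0.12), and with TPM its direction turned (−0.18).

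Slc11a2 stood at 8.18, 8.05 and 9.28 scaled FPKM in control and at 5.71, 5.35 and 4.68 in Al. Every Al library was below every control library, and the log2 fold change was −0.69 ± 0.13 (limma adjusted P = 0.00151). The fall was larger in the FPKM as deposited (−1.17). With quantile normalization it was −0.52, short of the fold threshold. Slc11a2 and Tfrc, which share a 3′ UTR match to the hairpin, thus had changes of opposite sign on the scale used here, and the interval of each excluded 0 (0.37 to 1.31 for Tfrc, −0.98 to −0.40 for Slc11a2, 95%).

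Storage genes held the most abundant messages of the group. The heavy chain, Fth1, carries the ferroxidase activity of ferritin and the light chain, Ftl1, aids the mineral core. Both were called higher in Al, where they made up 2 to 2.5% of the summed FPKM against 1.17 to 1.42% in control. Of the 50 genes with the highest mean FPKM over all 6 libraries, the other 48 had a median log2 fold change of 1.65, near that of both chains. Genes high in Al enter such a list more easily, so this median leans upward. Ncoa4, the receptor that delivers ferritin to the lysosome for iron release, was not called.

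Ftl1 stood at 2007, 1900 and 2607 scaled FPKM in control and at 8492, 8350 and 5321 in Al. Fth1 stood at 1813, 1760 and 2069 in control and at 6514, 5369 and 3918 in Al. For each chain the groups were well separated, and Al replicate 3 was the lowest of the Al libraries while control replicate 3 was the highest of the controls. The log2 fold change was 1.75 ± 0.42 for Ftl1 (limma adjusted P = 0.00619) and 1.46 ± 0.37 for Fth1 (limma adjusted P = 0.00833). Both genes were also higher in the FPKM as deposited (1.26 and 0.97) and in TPM (0.96 and 0.67). Quantile normalization, which gives genes of equal rank an equal value, left Ftl1 at 0.05 and turned Fth1 to −0.16, as Ftl1 ranked 4 in control and 3 in Al and Fth1 ranked 6 and 8. Without control replicate 2 the changes were 1.65 and 1.40, but the calls were lost (limma adjusted P = 0.0554 and 0.0607). They were also lost when no filter on low values was set (limma adjusted P = 0.0676 and 0.07) and with the replicate number as a block (0.114 and 0.122).

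The reads of ferritin genes may include those of copies. Ftl1 matched 6 other annotated genes at 90% identity or more, among them Ftl1-ps1 at 99.6% over 910 bases, Fth1 matched 1, and none of these copies was in the table. How reads shared between copies were counted is not given in the sources used here. The 7 listed Fthl17 genes and pseudogenes, paralogs of Fth1, were at 0 in every library.

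Ncoa4 stood at 8.12, 8.87 and 8.69 scaled FPKM in control and at 13.3, 12.1 and 9.55 in Al. The Al libraries were above the controls, Al replicate 3 by little, and the log2 fold change of 0.43 ± 0.14 (limma adjusted P = 0.0232) was under the fold threshold. Its direction turned in the FPKM as deposited (−0.06) and in TPM (−0.35). A processed pseudogene shared 1878 bases of Ncoa4 at 99.9% identity, so its reads are likewise uncertain.

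Slc40a1, which encodes ferroportin, the exporter of iron, had a log2 change larger than that of the other iron genes on this scale, though with a pseudocount of 1 it (−1.74) and Ftl1 (1.75) were alike in size. It stood at 8.73, 8.56 and 7.52 scaled FPKM in control and at 2.30, 0.888 and 2.45 in Al, from 1369 to 1563 reads per control library and 55 to 171 per Al library. All Al libraries were far below the controls, and Al replicate 2 was the lowest. The log2 fold change was −2.20 ± 0.33 (limma adjusted P = 0.000508), and it was −1.75 without Al replicate 2. The call held in all 19 alternative settings of the fit that were run, with −2.67 for the FPKM as deposited, −3.01 for TPM and −1.99 after quantile normalization.

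The sensing genes were not called. Aco1 encodes IRP1, which serves as a cytosolic aconitase when it holds an iron-sulfur cluster, Ireb2 encodes IRP2, and Fbxl5 encodes the iron-binding subunit of the ubiquitin ligase that removes IRP2. All of these are regulated largely at the protein level, which RNA does not show.

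Aco1 stood at 18.4, 19.5 and 18.6 scaled FPKM in control and at 18.4, 17.9 and 18.0 in Al. The groups all but met, and the log2 fold change of −0.06 had a 95% interval of −0.26 to 0.14 (limma adjusted P = 0.576). Ireb2 stood at 12.5, 11.7 and 11.5 in control and at 9.08, 9.22 and 12.2 in Al. Here Al replicate 3 lay within the controls and the other two Al libraries below them, with a log2 fold change of −0.24 and an interval of −0.54 to 0.07 (limma adjusted P = 0.152). Without Al replicate 3 the change was −0.36 (limma adjusted P = 0.00748), still under the fold threshold. Fbxl5 stood at 16.2, 17.6 and 16.0 in control and at 10.8, 14.1 and 14.2 in Al. The Al libraries were all lower, and the change of −0.36 ± 0.13 (limma adjusted P = 0.0358) was under the fold threshold. Without Al replicate 1 it was −0.22 (limma adjusted P = 0.0999). In the FPKM as deposited, where the median gene stood at −0.43, Ireb2 (−0.72) and Fbxl5 (−0.84) were called lower and Aco1 (−0.54) was not. With TPM, where the median gene stood at −0.74, all of them were called lower (−1.02, −1.14 and −0.84).

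**Figure D2:**
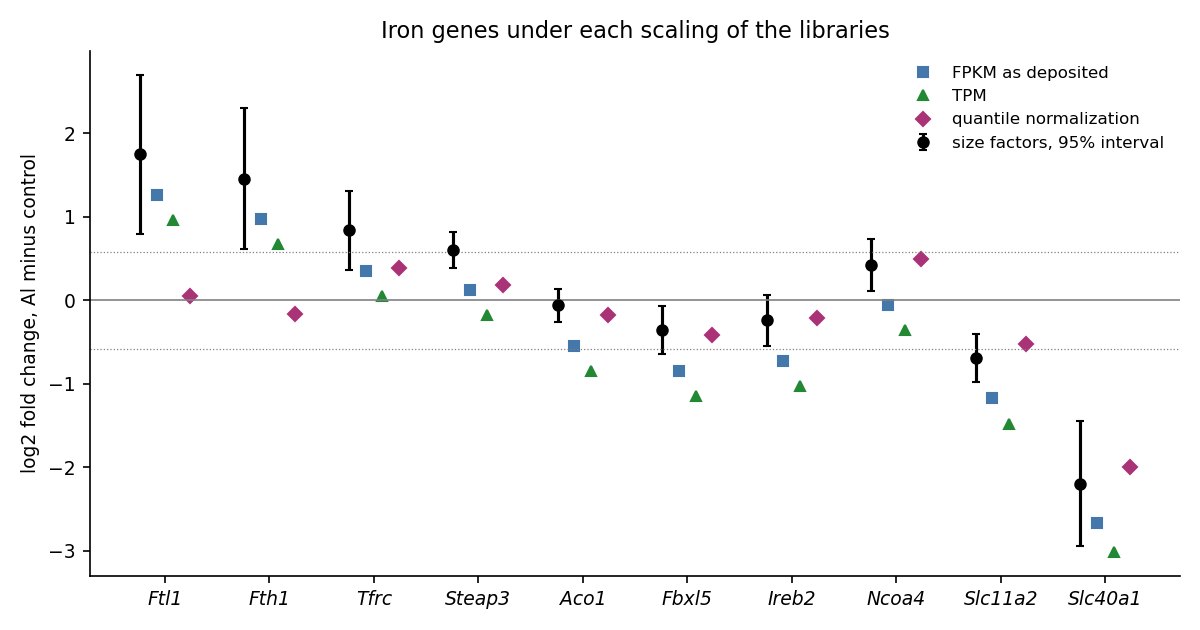
Log2 fold change (Al minus control) of each iron gene with size factors and its 95% interval (black), and under FPKM as deposited (blue squares), TPM (green triangles) and quantile normalization (purple diamonds). Dotted lines mark ±0.58, and Slc40a1 lies beyond the line under all of these scalings while Tfrc, of the scalings shown, passes it only with size factors.

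A ratio of 2 genes within a library does not change when the library is multiplied by 1 factor, as with size factors or TPM, so 6 ratios were compared. Quantile normalization is no such factor, and it turned the ratios of Ncoa4 and of Tfrc to Fth1. An exact permutation test of 3 against 3 libraries cannot give a two-sided P under 0.1, so none of these ratios could pass a threshold of 0.05, and the adjusted P over the 6 ratios was 0.15 for the 4 ratios at 0.1.

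The ratio of Ncoa4 to Fth1 was 0.00448, 0.00504 and 0.00420 in control and 0.00204, 0.00226 and 0.00244 in Al. The Al libraries were all lower, by 1.03 on the log2 scale in the mean (exact P = 0.1), whereas quantile normalization gave a difference of 0.66 in the other direction. The ratio of Tfrc to Fth1, receptor to store, was 0.0217, 0.0232 and 0.0323 in control and 0.0117, 0.0187 and 0.0205 in Al. It too was lower in every Al library, although Tfrc itself was higher, with a log2 difference of −0.62 (exact P = 0.1) that ranged from −0.78 (without Al replicate 3) to −0.37 (without Al replicate 1) when 1 library was left out and was 0.55 after quantile normalization. The ratio of heavy to light chain lay between 0.794 and 0.926 in control and between 0.643 and 0.767 in Al, a log2 difference of −0.29 (exact P = 0.1). The listed FPKM of the light chain was the higher in all 6 libraries, with the limit on copies given above.

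The ratio of Slc40a1 to Slc11a2, exporter to importer, was 1.07, 1.06 and 0.810 in control and 0.402, 0.166 and 0.524 in Al. The groups were apart, with a log2 difference of −1.57 (exact P = 0.1), and the 2 messages were near equal in the controls. The groups overlapped for Ireb2 to Aco1, with a log2 difference of −0.18 (exact P = 0.4), and for Fbxl5 to Ireb2, with −0.12 (exact P = 0.5). Each overlap came from 1 Al library, as the groups were apart without Al replicate 3 for Ireb2 to Aco1 (−0.325) and without Al replicate 2 for Fbxl5 to Ireb2 (−0.244). With 1 library left out the differences ranged from −0.325 to −0.095 for Ireb2 to Aco1, lowest in size without Al replicate 1, and from −0.244 to −0.048 for Fbxl5 to Ireb2, lowest in size without Al replicate 3.

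**Figure D3:**
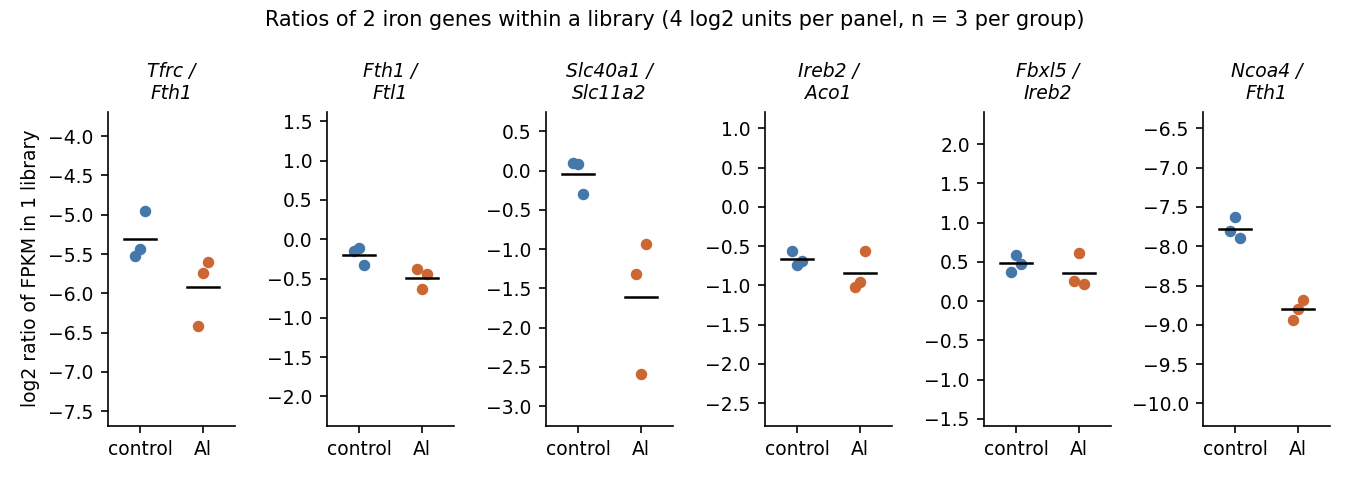
Log2 ratio of the FPKM of 2 iron genes within each library, control in blue and Al in orange, with group means as lines and 4 log2 units in every panel. The groups are apart for Tfrc to Fth1, Fth1 to Ftl1, Slc40a1 to Slc11a2 and Ncoa4 to Fth1, and they overlap for Ireb2 to Aco1 and Fbxl5 to Ireb2.

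Other genes of iron handling were read from 5 further lists. Of 30 genes of iron transport and systemic control, 29 were in the table and 19 could be tested, of which 2 were called higher and 6 lower (median log2 fold change −0.33). The shares over all tested genes were 25.5% higher and 23.7% lower. The paralogs Steap2 and Steap1 fell, with Steap2 at 10.01 ± 0.706 scaled FPKM in control and 1.49 ± 0.258 in Al (log2 fold change −2.68) and Steap1 at 41.7 ± 4.39 and 15.2 ± 3.44 (−1.47). Ceruloplasmin, Cp, the ferroxidase that works beside ferroportin, fell (−1.20), as did the endolysosomal channel Mcoln1 (−0.92). The poly(rC)-binding protein Pcbp1, an iron chaperone for ferritin, rose from 180.5 ± 2.01 to 774 ± 173 (2.07), and the iron and zinc importer Slc39a14 rose by 0.60 on the log2 scale, a call that 1 library decided (0.50 without control replicate 2, 0.52 without Al replicate 2) and a direction that turned with TPM (−0.17). Transferrin itself, Trf, stood at a mean FPKM of 0.0300 in control and 0.0460 in Al, too low to test.

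Among 15 genes of heme synthesis and breakdown, 1 was called higher and 6 lower (median −0.37), beside 25.5% and 23.7% of all tested genes. Hmox1, heme oxygenase 1, which frees iron from heme, rose from 32.1 ± 6.66 to 166 ± 46.4 scaled FPKM (log2 fold change 2.35 ± 0.21, limma adjusted P = 3.5e-05). Its paralog Hmox2 fell (−0.83). Of the synthesis enzymes, Urod (−1.28) and Alad (−0.81) fell.

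Among 24 genes of iron-sulfur cluster assembly, 4 were called higher and 5 lower (median 0.14), beside 25.5% and 23.7% of all tested genes. The ferredoxin Fdx1l (1.55), the glutaredoxin Glrx5 (1.02), the scaffold Iscu (0.86) and the cytosolic factor Fam96a (0.82) rose, of which Fdx1l alone was still called in the FPKM as deposited. Iba57 (−1.47) and Lyrm4 (−1.38) were among those that fell. Iscu thus differed in sign from Lyrm4, its partner in the early mitochondrial machinery, although with TPM it stood at only 0.08.

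Among 15 transcripts described elsewhere with an IRE or encoding partners of the FBXL5 and NCOA4 proteins, 13 could be tested, of which 3 were called higher and 3 lower (median −0.30). These counts were near the shares over all tested genes, 25.5% higher and 23.7% lower. App (1.23) and the ligase subunit Skp1a that binds FBXL5 (0.81) were among those that rose, and Atg9a (−1.13), Cdc14a (−0.70) and Pfn2 (−0.60) fell. The Skp1a call was lost with the FPKM as deposited (0.32), TPM (0.03) and quantile normalization (0.38), and that of App with TPM (0.45). The calls of Cdc14a (−0.49 without Al replicate 2, −0.57 without control replicate 1, −0.79 without control replicate 2 and −0.77 without control replicate 3) and of Pfn2 (−0.46 without Al replicate 3) did not hold without these libraries. Herc2, a ligase that acts on NCOA4, was not called (−0.30).

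Of 11 transcription factors and RNA-binding proteins known to act on iron genes, 10 could be tested, and 6 were called higher and 0 lower (limma, median 0.77). Of all tested genes, 25.5% were called higher and 23.7% lower. With no fold threshold, 2 of these regulators were lower at an adjusted P under 0.05, Hif1a at −0.36 and Zfp36l1 at −0.42, named after their values were seen. Bach1, a heme-sensing repressor of Hmox1 and the ferritin genes, rose from 7.71 ± 0.464 to 18.5 ± 0.674 scaled FPKM (1.25). Nfe2l2, which encodes the NRF2 activator of the same genes, rose from 34.7 ± 3.04 to 55.0 ± 6.58 (0.66), a direction that turned with TPM (−0.13). Myc (1.07), Zc3h12a (0.94) and Zfp36l2 (0.89) were also higher. With TPM, where the median gene stood at −0.74, 0 of these regulators were called higher and 2 lower.

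**Figure D4:**
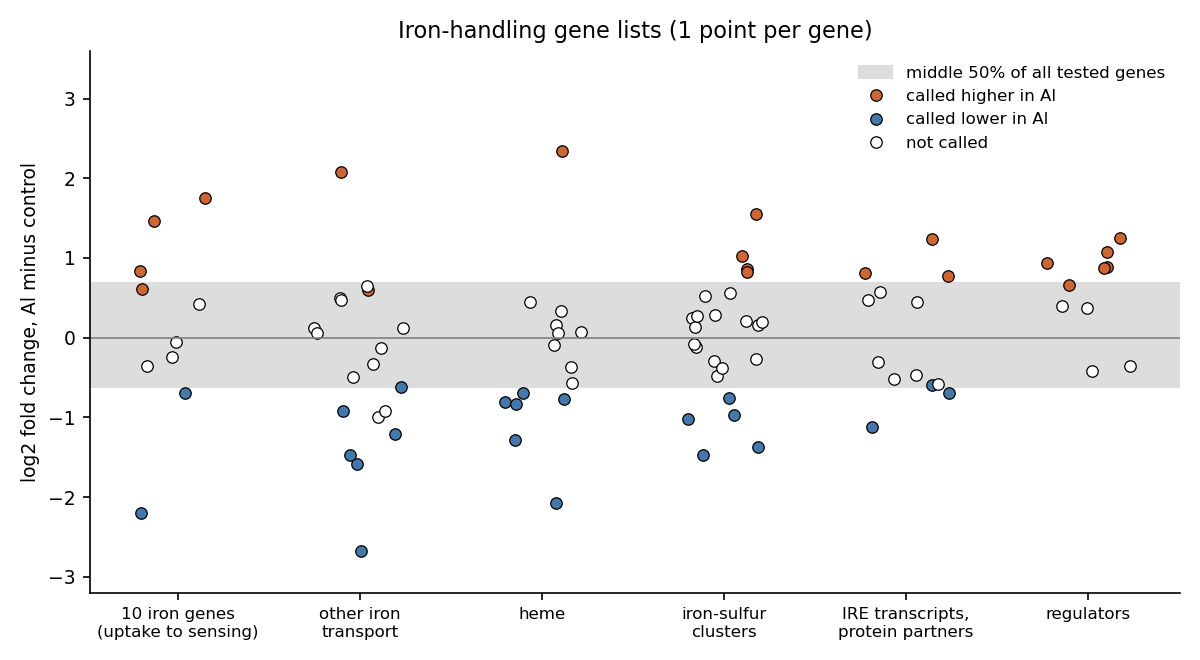
Log2 fold change (Al minus control, size factor scale) of each tested gene of the 10 iron genes and of 5 further lists, with called genes filled and the middle 50% of all tested genes shaded. On this scale 6 of 10 tested regulators were called higher and 0 lower, and 1 of 15 heme genes, Hmox1, higher and 6 lower. Of all tested genes, 25.5% (3291) were called higher and 23.7% (3053) lower on this scale. With TPM, 0 regulators were called higher and 2 lower, and 1 heme gene higher and 12 lower. Over all tested genes, TPM gave 1140 called higher and 6738 lower. The lists were not tested against each other.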

How the data were processed

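RNA of HT22 cells was sequenced as the input of an m6A immunoprecipitation experiment. The authors deposited 1 table of FPKM (fragments normalized by gene length and library size) per gene and library. The labels name a stranded mRNA kit, and the submitters' processing notes list fastp, HISAT2 and HTSeq with GRCm39, whereas the methods name GRCm38. The table has no coordinates, and the program and annotation behind the FPKM are not given in the sources used here. Coordinates and UTR sequences came from GENCODE M21 on GRCm38, and copies were found with minimap2 2.31-r1302.

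FPKM were divided by size factors, each the median ratio to a reference library of geometric means (0.799 to 0.929 in Al, 1.17 to 1.20 in control), 0.1 was added, and the log2 values of 12889 genes (mean FPKM 0.1 or more) were fitted with limma 3.58.1 (eBayes with trend, R 4.3.3). Fold changes are on this log2 scale, which understates those of low genes. P values were adjusted by Benjamini-Hochberg over all tested genes. Steps of low values gave whole reads for 17688 of 17688 genes above 0 (within 0.001), which gave the depths and were fitted with limma voom as an alternative, calling 3071 genes higher and 3336 lower. These reads are the smallest whole numbers in the ratio of a gene's values, so they are fixed only up to a common divisor. In a simulation of this step, 97.9% of 3841 genes were recovered exactly and 100% up to such a divisor. Data were also simulated with this number of libraries over 12811 genes. Few genes were changed, as many up as down and none of them low, with a fixed spread beyond counting noise. The fit called 98% of 100 genes changed by 1 on the log2 scale, 100% of 100 changed by 2 and 0.0634% of the unchanged. The observed data had many more genes called and a shift in the most abundant genes, so these rates may not hold for them. Ratios were compared by two-sided exact permutation tests (scipy 1.17.1).

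The iron genes, the further lists and the tests were chosen with earlier results of these data known. All iron genes are named. From each further list, up to 4 called genes in each direction with the largest change and a mean FPKM of at least 1 are named, plus Trf, Hmox1, Nfe2l2, Bach1 and Herc2 and the cell type markers called, and some genes that meet this rule are not reported here.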

Additional observations from a re-analysis of the deposited data

How the results depend on the processing

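Of 190 values of single iron genes under 19 alternative settings, 163 kept their direction and their call, 16 lost the call, 7 gained one and 4 turned. FPKM as deposited and TPM shift all genes together, and quantile normalization does not. With the FPKM as deposited, 1736 genes were called higher and 5321 lower, in place of 3291 and 3053, and with TPM 1140 and 6738. The iron genes called higher numbered 2 with the FPKM as deposited, 2 with TPM, 0 with quantile normalization, 2 with no filter on low values, and 1 to 4 when 1 library was left out, in place of 4. Those called lower numbered 4, 5 and 1 under the other scalings in that order, in place of 2. Turned values were Fth1 at −0.16 with quantile normalization, Ncoa4 at −0.056 with the FPKM as deposited and −0.35 with TPM, and Steap3 at −0.18 with TPM. Of 700 values of 37 other named genes, 633 kept direction and call, 53 lost the call, 11 gained one and 3 turned, namely Slc39a14 (−0.172) and Nfe2l2 (−0.128) with TPM and Col1a1 (−0.457) with quantile normalization. Quantile normalization of the ratios, an alternative chosen after seeing the data, turned Tfrc to Fth1 (0.545) and Ncoa4 to Fth1 (0.661) and left Ireb2 to Aco1 at −0.030.

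Among the other iron transport genes, the number called higher was 1 with the FPKM as deposited, TPM, a pseudocount of 1 or voom, 4 with no fold threshold, and 1 to 3 with 1 library left out, and the number lower was 13 with TPM. Heme genes called higher were 2 with quantile normalization and 1 to 2 with 1 library left out, and 12 were lower with TPM. Iron-sulfur genes called higher were 1 with the FPKM as deposited or TPM, 2 with quantile normalization and 7 with no fold threshold, and 10 and 14 were lower with the FPKM as deposited and TPM. IRE transcripts and protein partners called higher were 1 with the FPKM as deposited, 0 with TPM, 5 with no fold threshold and 3 to 5 with 1 library left out, and those lower were 7 with the FPKM as deposited, TPM or no fold threshold, 1 with a pseudocount of 1 and 5 with voom. Regulators called higher were 2 with the FPKM as deposited and 0 with TPM, and 2 were lower with the FPKM as deposited, TPM, quantile normalization or no fold threshold. The cause of these differences was not tested beyond the scaling itself.

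With the replicate number as a block, 2 iron genes were called higher, with limma adjusted P of 0.122 for Fth1 and 0.114 for Ftl1. The same-numbered libraries did not deviate together (correlations of −0.112 to −0.0599), so the numbers were not taken as pairs. The lower depth of the Al libraries limits the low genes, and at 55 reads Slc40a1 in Al replicate 2 was the least counted value of the group.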
